A study of Mus musculus with 16 samples.

Results

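Protein O-mannosylation attaches a mannose to serine or threonine in the endoplasmic reticulum, and its best known carrier is dystroglycan. The genes described here are 6 that act along this route, namely *Pomt1*, *Pomt2*, *Pomgnt1*, *Mgat5b*, *Gyltl1b* and *Dag1*. They were taken by name from the deposited table, and all 6 were found among the 37583 genes listed.

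RNA was sequenced from the cortex and the cerebellum of 8 C57BL/6J mice, with 1 library per region and mouse and 16 libraries in all. In 4 mice *Slc39a8*, a metal ion transporter gene, was wild type, and these were males of 12 weeks. The other 4 mice carried the A391T variant of *Slc39a8*, which the label also names A393T, and their age, sex and zygosity are not given in the sources used here. The mice are called 1 to 4 within each genotype, in the order of the animal numbers in the titles of the count files, and values of a group are given in that order. The 4 groups of 4 libraries are thus wild-type cortex, wild-type cerebellum, A391T cortex and A391T cerebellum, and no treatment is given for any of them.

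The pathway forks early. The POMT1-POMT2 complex adds the first mannose, and POMGNT1 extends it with N-acetylglucosamine to give core M1, onto which MGAT5B, an enzyme enriched in brain, places a branch to give core M2. A separate core M3 is carried by dystroglycan, and on it the enzyme encoded by *Gyltl1b* can build the matriglycan repeat that binds laminin, agrin and neurexin. Loss of several of these genes in humans causes muscular dystrophies with malformation of the cortex and cerebellum.

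RefSeq start sites were at hand for 5 of the 6 genes. The windows of *Mgat5b*, which had the largest difference between regions of the well counted genes, and of *Pomt1* and *Pomt2*, whose products act as 1 complex, are shown from 250 bases before to 50 bases after the start, 5′ to 3′ on the strand of the gene. They lie at chr11:116918613-116918912 (plus strand), chr2:32236390-32236689 (plus strand) and chr12:87147853-87148152 (minus strand) of GRCm38.p6. Capitals mark matches, on either strand, to 5 short motifs of general promoter elements. The first is the TATA element, spelled TATAAA for this search, and the second is the CCAAT box, spelled by its own name. The third is the GC element that Sp factors bind, spelled GGGCGG, and the fourth is the E box of basic helix-loop-helix factors, spelled CACGTG. The fifth is the cAMP response element, spelled TGACGTCA, and none of the 5 motifs contains another.

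Mgat5b: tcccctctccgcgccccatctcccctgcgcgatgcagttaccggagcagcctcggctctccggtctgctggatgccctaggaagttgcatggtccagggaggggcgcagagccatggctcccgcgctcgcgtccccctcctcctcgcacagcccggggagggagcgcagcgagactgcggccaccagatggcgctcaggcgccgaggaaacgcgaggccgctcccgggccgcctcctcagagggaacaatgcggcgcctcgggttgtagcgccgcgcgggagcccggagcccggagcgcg
Pomt1: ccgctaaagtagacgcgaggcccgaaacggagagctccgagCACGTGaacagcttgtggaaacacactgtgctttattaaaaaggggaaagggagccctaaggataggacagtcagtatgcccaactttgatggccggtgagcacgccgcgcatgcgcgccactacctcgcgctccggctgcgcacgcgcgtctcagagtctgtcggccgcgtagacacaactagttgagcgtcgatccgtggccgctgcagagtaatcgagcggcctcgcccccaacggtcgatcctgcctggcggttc
Pomt2: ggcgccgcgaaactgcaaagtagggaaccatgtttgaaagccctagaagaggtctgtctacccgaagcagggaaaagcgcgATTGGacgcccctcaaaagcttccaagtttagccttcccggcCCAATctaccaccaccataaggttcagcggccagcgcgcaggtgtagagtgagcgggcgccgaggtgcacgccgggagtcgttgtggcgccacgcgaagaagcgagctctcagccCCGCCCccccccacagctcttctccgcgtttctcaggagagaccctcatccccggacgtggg

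All 3 windows were rich in CG dinucleotides, with 36 in *Mgat5b*, 33 in *Pomt1* and 26 in *Pomt2* against a median of 7 over 32851 promoters. *Mgat5b* held none of the 5 motifs. *Pomt1* held 1 E box, as 7.15% of promoters do, and *Pomt2* held 2 CCAAT boxes and 1 GC element, found in 37.41% and 35.66% of promoters. A TATA element stood in 13.62% of promoters and a cAMP response element in 1.79%. *Pomt1* and *Pomt2* had no motif in common among those searched. These matches describe the letters only.

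Counts on genes ran from 20813432 to 30497206 per library. The 8 cerebellum markers summed to 4005 to 4536 TPM (a level per gene length, on 1 total for every library) in cerebellum libraries and to 114 to 138 TPM in cortex libraries. The 8 cortex markers summed to 765 to 886 TPM in cortex and to 41.2 to 61.7 TPM in cerebellum, so every library had the markers of its labelled region. The libraries farthest from their groups were the cerebellum of A391T mouse 1, with 12.6% of genes over 1.5-fold from the group mean, and the cortex of wild-type mouse 4, with 5.76%. In both regions the table of RPKM values gives the libraries of wild-type mice 1 and 2 to A391T mice 3 and 4 and the reverse, which touches 8 of the 16 libraries and puts them in the other genotype. Here the mice keep their names from the count files. Counts per gene hold no base calls, so the genotype of a library could not be checked here, and which set of names is right is not known. Levels over all 8 mice of a region are the same under either set of names.

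Choroid plexus markers (6 genes) summed to 2400 to 8117 TPM in 6 cerebellum libraries, and to 42.0 and 43.5 TPM in those of A391T mouse 4 and wild-type mouse 3. Cortex libraries had from 9.13 to 50.2 TPM. Astrocyte markers summed to 1353 to 1701 TPM in cerebellum against 823 to 1004 TPM in cortex, meninges markers to 129 to 152 against 54.2 to 74.6 TPM, and microglia markers to 107 to 150 against 357 to 428 TPM. Striatum markers (6 genes) summed to 265 to 907 TPM in cortex libraries, lowest in A391T mouse 3, and to at most 311 TPM in cerebellum libraries, with medians of 741 and 268 TPM. The part of these differences in cell or tissue content in the differences between regions reported here was not tested. In tissue RNA, fewer cells of a type and less RNA per cell cannot be told apart.

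The first question was how the RNA of each step differs between cortex and cerebellum. The counts were fitted with the quasi-likelihood method of edgeR, and a gene passed at an adjusted p-value (Benjamini-Hochberg, over all genes tested) under 0.05. In wild-type mice 3 genes were higher in cerebellum (*Pomt1*, *Pomt2* and *Gyltl1b*), 2 were lower (*Pomgnt1* and *Mgat5b*) and 1 did not pass (*Dag1*). Over all 16040 genes tested 67.8% passed, 34.7% as higher and 33.1% as lower in cerebellum, so 5 of 6 is near the background. *Gyltl1b* entered the test through its cerebellum counts alone, which leaves 4 of the other 5 genes. At least a 2-fold change was found for 2 of the 6 genes, *Mgat5b* and *Gyltl1b*, against 24.7% of all genes tested, and without *Gyltl1b* for 1 of the other 5. The 6 genes had a median size of log2 fold change of 0.40, against 0.46 for all genes tested.

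**Figure D1:**
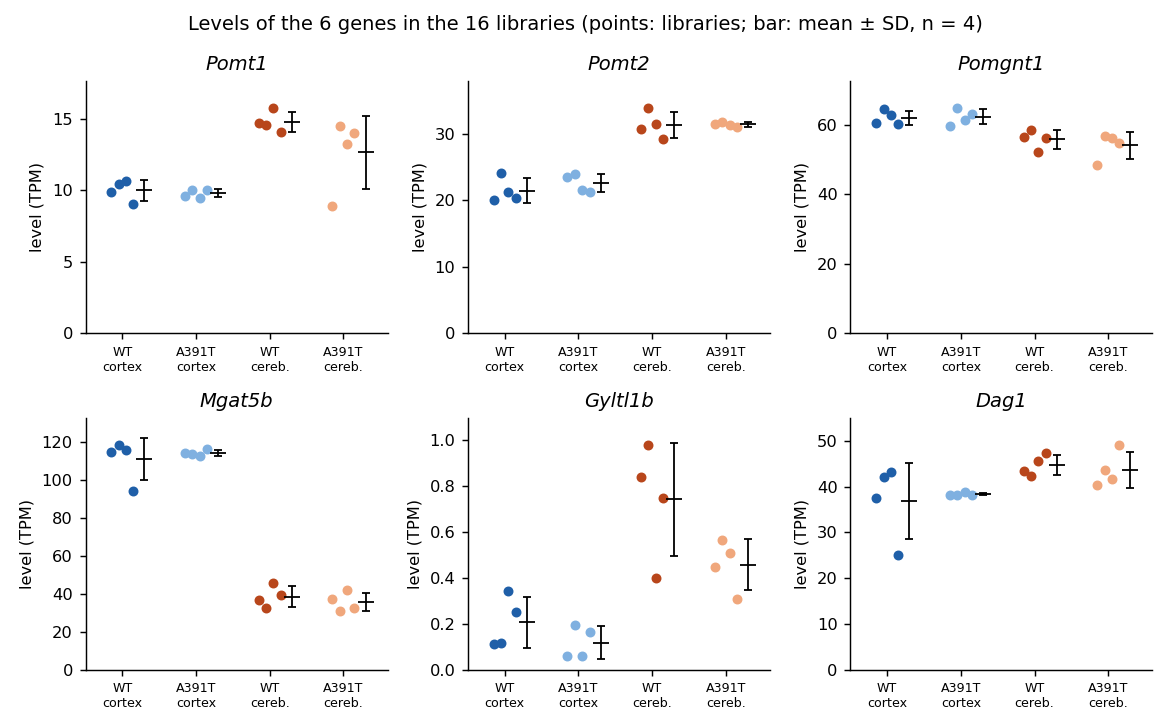
Level in TPM (y axis, linear, from 0) of each of the 6 genes in the 16 libraries (points), by genotype and region (x axis), with the mean and SD of each group of 4 (bars). *Mgat5b* ran from 94.4 to 119 TPM in cortex and from 30.8 to 46.0 TPM in cerebellum, while the regions overlapped for *Dag1* in wild type.

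*Pomt1* (ENSMUSG00000039254, chromosome 2, 32092110 to 32110525 of NCBIM37, the mm9 assembly) encodes 1 subunit of the mannosyltransferase. Its level in wild-type cortex was 9.85, 10.4, 10.7 and 8.99 TPM in mice 1 to 4. In the cerebellum of the same mice it was 14.7, 14.5, 15.7 and 14.0 TPM. Every wild-type cerebellum library lay above every cortex library, and the log2 fold change, cerebellum minus cortex, was 0.41 (SE 0.072, adjusted p = 3.9e-04). In A391T mice cortex had 9.62, 10.0, 9.45 and 10.0 TPM and cerebellum 8.88, 14.5, 13.2 and 14.0 TPM. The cerebellum library of A391T mouse 1 fell below all 4 cortex libraries, and the difference did not pass in A391T mice (0.26, SE 0.12, adjusted p = 0.086). Without that library it was 0.37 (adjusted p = 2.3e-04).

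*Pomt2* (ENSMUSG00000034126, chromosome 12, 88447816 to 88488852) encodes the partner subunit. Wild-type cortex had 20.02, 24.2, 21.2 and 20.3 TPM and wild-type cerebellum 30.7, 33.9, 31.5 and 29.3 TPM. A391T cortex had 23.5, 24.0, 21.5 and 21.3 TPM and A391T cerebellum 31.5, 31.8, 31.3 and 31.1 TPM. All 8 cerebellum libraries lay above all 8 cortex libraries, with a log2 fold change of 0.40 over all 8 mice (SE 0.052, adjusted p = 1.3e-06). The cerebellum library of A391T mouse 1, low for *Pomt1*, was not low for *Pomt2*. A share of 2.51% of the *Pomt2* exon bases overlaps *Gstz1* on the other strand. The counting did not use the strand, and entries that fit more than 1 gene were set apart as ambiguous and not counted.

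The ratio of *Pomt1* to *Pomt2* within a library asks whether the subunits kept step. In wild-type mice cortex had 0.467 ± 0.0357 (SD, n = 4) and cerebellum 0.472 ± 0.0304, a log2 difference of 0.02 (two-sided exact permutation test, p = 0.943, adjusted p = 0.943 over 4 ratio tests). In A391T mice it was 0.435 ± 0.0277 and 0.402 ± 0.0812, with a log2 difference of -0.14 (exact permutation p = 0.657, adjusted p = 0.876). The lowest ratio, 0.282, was that of the cerebellum of A391T mouse 1. A difference between regions in the ratio was not detectable with 4 mice per genotype, where the smallest p the test allows is 0.0286.

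*Pomgnt1* (ENSMUSG00000028700, chromosome 4, 115796445 to 115832454) encodes the N-acetylglucosaminyltransferase that makes core M1. Its level ran from 59.7 to 64.8 TPM in the 8 cortex libraries, with a median of 62.1, and from 48.3 to 58.3 TPM in the 8 cerebellum libraries, with a median of 56.1. The regions did not overlap, and the log2 fold change was -0.30 in wild type (SE 0.059, adjusted p = 8.2e-04), -0.31 in A391T (SE 0.057, adjusted p = 8.7e-04) and -0.30 over all 8 mice (SE 0.039). A share of 11.7% of its exon bases overlaps 1520402A15Rik on the other strand.

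*Mgat5b* (ENSMUSG00000043857, chromosome 11, 116780177 to 116848262), the branching enzyme of core M2, had the largest difference of the genes with over 100 counts in every library. Wild-type cortex had 115, 119, 116 and 94.4 TPM, and the lowest of these was mouse 4. Wild-type cerebellum had 36.7, 32.3, 46.0 and 39.4 TPM. A391T cortex had 114, 114, 112 and 117 TPM and A391T cerebellum 37.0, 30.8, 42.0 and 32.8 TPM. The lowest cortex library was thus far above the highest cerebellum library. The log2 fold change was -1.68 in wild type (SE 0.10, adjusted p = 5.9e-08), -1.78 in A391T (SE 0.10, adjusted p = 2.3e-07) and -1.72 over all 8 mice (SE 0.076). In 8 cortex libraries against the 2 cerebellum libraries low in choroid plexus markers it was -1.68 (SE 0.11).

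*Mgat5b* and *Pomgnt1* act in sequence, and their order of levels turned over between regions. In wild-type cortex the ratio of *Mgat5b* to *Pomgnt1* was 1.90, 1.84, 1.84 and 1.57 in mice 1 to 4, and in wild-type cerebellum 0.651, 0.554, 0.882 and 0.702. All cortex ratios were above 1 and all cerebellum ratios below it, in A391T mice too, where cortex ran from 1.76 to 1.91 and cerebellum from 0.542 to 0.768. The log2 difference was -1.37 in wild type and -1.48 in A391T, both with an exact permutation p of 0.0286, which is the smallest this design allows, and an adjusted p of 0.0571. It did not pass after adjustment, although all 8 mice had the lower ratio in cerebellum. With the *Pomt1* to *Pomt2* ratios far from the smallest p, the adjusted p over the 4 ratio tests could not fall below 0.0571 here. The failure to pass was thus set by the number of mice and tests.

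**Figure D2:**
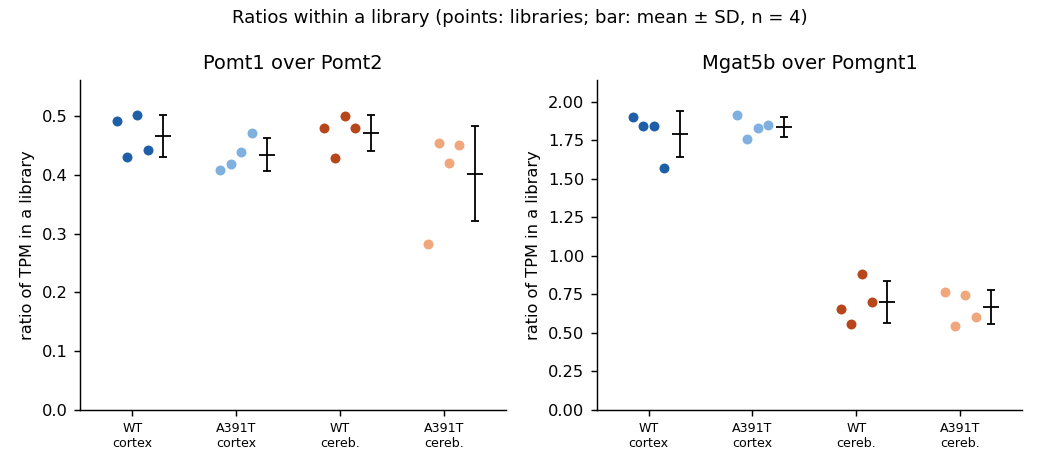
Ratio of TPM (y axis, linear, from 0) of *Pomt1* to *Pomt2* (left) and of *Mgat5b* to *Pomgnt1* (right) in each library (points), by group (x axis), with the mean and SD of 4 libraries (bars). The *Mgat5b* to *Pomgnt1* ratio was at least 1.57 in cortex and at most 0.882 in cerebellum.

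*Gyltl1b* (ENSMUSG00000040434, chromosome 2, 92205203 to 92212102) encodes a xylosyl- and glucuronyltransferase that can extend matriglycan and was scarce everywhere. Wild-type cortex libraries had 4, 5, 11 and 8 counts and wild-type cerebellum libraries 29, 35, 14 and 25, from 0.111 to 0.344 and from 0.401 to 0.981 TPM. A391T cortex libraries had 2, 7, 2 and 7 counts and A391T cerebellum libraries 19, 20, 17 and 10, from 0.0580 to 0.194 and from 0.307 to 0.567 TPM. Cerebellum was above cortex within each genotype. The tests that follow are limited in that the gene passed the filter on low counts only through cerebellum, where it is high, and with no filter the values were 1.74 in wild type (adjusted p = 8.9e-04) and 1.80 in A391T (adjusted p = 0.0022). With the filter the gene had a log2 fold change of 1.74 in wild type (SE 0.40, adjusted p = 0.0023), 1.79 in A391T (SE 0.38, adjusted p = 0.0023) and 1.77 over all 8 mice (SE 0.28, adjusted p = 1.6e-05). Under the names of the RPKM table it was 1.13 in wild type (SE 0.43, adjusted p = 0.038) and 2.41 in A391T (SE 0.36, adjusted p = 2.0e-04), and the wild-type ranges then overlapped, with 0.344 TPM in the highest cortex library and 0.307 TPM in the lowest cerebellum library. In 2 cortex libraries the count was under 3 and so within the counting limit of a library at 0.

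The *Gyltl1b* level followed the order of the choroid plexus markers within cerebellum, but not within cortex. In both genotypes the order of the 4 cerebellum libraries by *Gyltl1b* was that by their summed choroid plexus markers. In cerebellum it was lowest in each genotype in the library low in choroid plexus markers, 0.401 TPM in wild-type mouse 3 and 0.307 TPM in A391T mouse 4. It was highest, at 0.981 TPM, in wild-type mouse 2, whose library also had the highest choroid plexus marker sum, 8117 TPM. Among cortex libraries the highest level, 0.344 TPM, was in wild-type mouse 3, which had the highest marker sum of that region, 50.2 TPM. The rest of wild-type cortex did not keep this order, with 0.252 TPM at a sum of 11.8 TPM in mouse 4 and 0.118 TPM at 22.5 TPM in mouse 2. Nor did A391T cortex, with 0.194 TPM at 13.8 TPM in mouse 2 and 0.0580 TPM at 16.7 TPM in mouse 3. The 2 cerebellum libraries low in choroid plexus markers, with 14 and 10 counts, were also the lowest of all cerebellum libraries in *Gyltl1b* itself. Against these 2 the log2 fold change from the 8 cortex libraries was 0.98 (SE 0.46) and no longer passed (adjusted p = 0.080). A smaller value than over all 8 mice thus followed from the choice of libraries. The part of choroid plexus in the *Gyltl1b* difference was not tested. The other 4 genes that passed over all 8 mice passed in this comparison too.

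**Figure D3:**
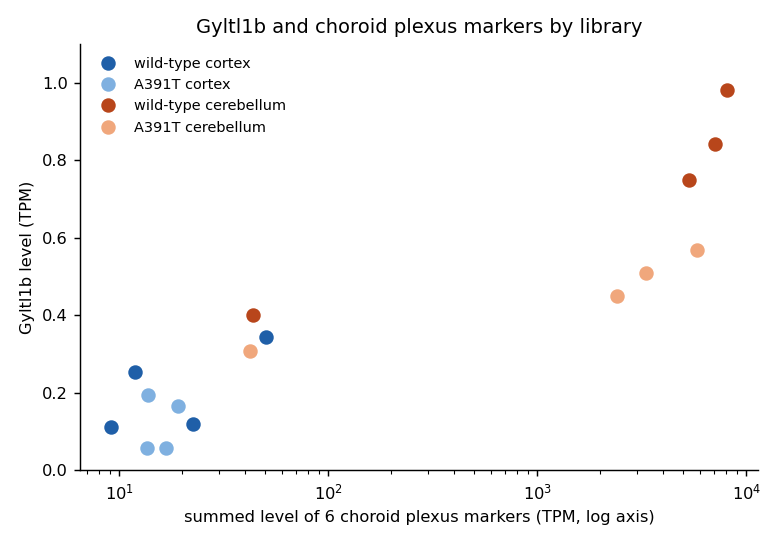
Level of *Gyltl1b* in TPM (y axis, linear, from 0) against the summed TPM of 6 choroid plexus markers (x axis, log scale) in the 16 libraries (points, coloured by group). The 2 cerebellum libraries with marker sums of 42.0 and 43.5 TPM lie at 0.307 and 0.401 TPM, below the other cerebellum libraries.

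*Dag1* (ENSMUSG00000039952, chromosome 9, 108108286 to 108166255) encodes the precursor of α- and β-dystroglycan, the carrier itself. Wild-type cortex had 37.4, 42.1, 43.1 and 25.0 TPM, the last in mouse 4, and wild-type cerebellum had 43.5, 42.3, 45.5 and 47.3 TPM. A391T cortex had 38.2, 38.3, 38.8 and 38.2 TPM and A391T cerebellum 40.3, 43.6, 41.7 and 49.1 TPM. The regions overlapped in wild type and the log2 fold change was 0.12 (SE 0.13, adjusted p = 0.43). In A391T mice the ranges did not overlap, yet the difference was 0.08 (SE 0.063, adjusted p = 0.28) after TMM normalization. It was 0.04 without the cerebellum library of A391T mouse 4 and 0.02 under the names of the RPKM table. Over all 8 mice it was 0.11 (SE 0.078, adjusted p = 0.20), and 0.05 without the cortex library of wild-type mouse 4. Without the cortex library of mouse 4 the wild-type value was -0.02. With library totals in place of TMM factors, which moved the median of all genes up by 0.12 to 0.13, *Dag1* had 0.21 in A391T (adjusted p = 0.010) and 0.23 over all 8 mice (adjusted p = 0.0060).

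In A391T mice 2 of the 6 genes were higher in cerebellum, 2 were lower and 2 did not pass, where 62.8% of 16005 genes passed, 31.6% as higher and 31.3% as lower in cerebellum. Those shares are 5051 and 5005 genes, against 6507 and 4175 with library totals. Over all 8 mice, with genotype as a term, 3 were higher, 2 lower and 1 did not pass, where 74.3% of 16589 genes passed, 38.8% as higher and 35.5% as lower. With library totals the higher and lower genes were 7731 and 4956 there, against 6431 and 5889, and 6792 and 4408 in wild type, against 5572 and 5303. The 2 genes past 2-fold were *Mgat5b* and *Gyltl1b* there too, against 24.7% of all genes in A391T and 25.2% over all 8 mice, and without *Gyltl1b* 1 of the other 5 was past it in each. By ranges of TPM alone, 5 of the 6 genes did not overlap between regions in wild type, 5 did not in A391T and 3 did not over all 8 mice, namely *Pomt2*, *Pomgnt1* and *Mgat5b*. Of the 16589 genes tested over all 8 mice, 64.9%, 61% and 47.7% did not overlap in these comparisons. *Gyltl1b*, which entered the tests through its cerebellum counts alone, is among the genes counted as higher in A391T and over all 8 mice. It is also among the genes counted as not overlapping in wild type and in A391T.

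**Figure D4:**
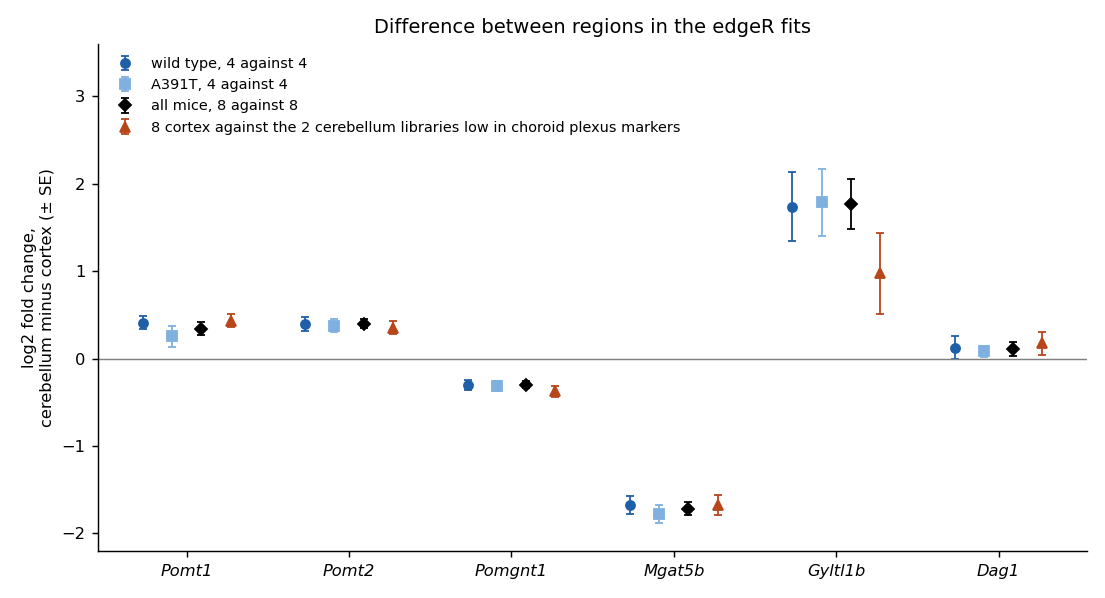
Log2 fold change between regions (y axis, cerebellum minus cortex, ± SE) of the 6 genes (x axis) in the edgeR fits of wild-type mice, A391T mice, all 8 mice, and 8 cortex libraries against the 2 cerebellum libraries low in choroid plexus markers. *Mgat5b* lies between -1.78 and -1.68 in all 4 fits. *Gyltl1b* is at 1.77 over all mice and at 0.98 in the last fit, whose 2 cerebellum libraries are also the lowest in *Gyltl1b*.

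Ordered by mean level per gene length over 8 libraries, cortex had *Mgat5b* (112.6 ± 7.56 TPM, SD), *Pomgnt1* (62.1 ± 1.94), *Dag1* (37.6 ± 5.51), *Pomt2* (22.0 ± 1.64), *Pomt1* (9.88 ± 0.532) and *Gyltl1b* (0.162 ± 0.0989). No neighbours in that order overlapped in range. In cerebellum the order was *Pomgnt1* (54.8 ± 3.22), *Dag1* (44.2 ± 2.97), *Mgat5b* (37.1 ± 5.18), *Pomt2* (31.4 ± 1.29), *Pomt1* (13.7 ± 2.07) and *Gyltl1b* (0.600 ± 0.234). There, all neighbours overlapped except *Pomt2* with *Pomt1* and *Pomt1* with *Gyltl1b*. *Mgat5b* stood above 92.9% of the 27196 genes with a count in cortex and above 78.4% in cerebellum. The place of *Dag1* depends on its length, 8261 bases in the deposited table and 4563 exon bases in the annotation used here. With the latter its mean would be 68.1 TPM in cortex, between *Mgat5b* and *Pomgnt1*, and 79.9 TPM in cerebellum, above *Pomgnt1*. In cortex it would then run from 45.2 to 78.0 TPM and overlap *Pomgnt1*, at 59.7 to 64.8 TPM.

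The genes whose profile over the 16 libraries was most alike, by Pearson's r of log2 CPM among 14410 genes, were *Epha5* (0.996), *Tmem179* (0.995) and *Pnma2* (0.995) for *Mgat5b*. For *Gyltl1b*, compared with 14411 genes, they were *Dnaic2* (0.944), an axonemal dynein gene of motile cilia, *Sod3* (0.930) and *Hsf1* (0.922). For *Dag1* the values were lower, with *Klhl28* at 0.917, *Atxn1l* at 0.910 and *Fgd1* at 0.908. The 16 points share 2 regions and 8 mice, and no p-value is given for these values.

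Steps around the 6 genes were read from lists of other genes of the pathway, over all 8 mice, where 74.3% of all genes tested passed, 38.8% as higher and 35.5% as lower in cerebellum. Of 9 genes that supply the mannose donor, 3 were higher in cerebellum, 1 was lower and 5 did not pass. *Gmppa*, a regulator of GDP-mannose synthesis, had 43.9 ± 3.90 TPM in wild-type cortex and 113 ± 7.72 TPM in wild-type cerebellum (SD, n = 4), a log2 fold change of 1.21 (SE 0.081). *Dpm1* and *Dpm3*, subunits of the dolichol-phosphate-mannose synthase on which POMT depends, had wild-type log2 fold changes of 0.48 and 0.34, and *Mpi*, which makes mannose 6-phosphate, had -0.35. In A391T mice *Dpm1* had 0.43, *Dpm3* had 1.01 (SE 0.33), and *Mpi* had -0.21 and did not pass (adjusted p = 0.093). Over all 8 mice the 3 values were 0.46, 0.69 and -0.27. *Dpm3* ran from 81.2 to 208 TPM in A391T cerebellum (median 85.8), and without the library of A391T mouse 1 its values were 0.50 in A391T and 0.41 over all 8 mice. Without that library *Mpi* passed in A391T mice (-0.33, adjusted p = 2.2e-05). The wild-type *Dpm3* difference no longer passed when any of 5 of the 8 libraries was left out, namely cortex of mouse 1, 2 or 3 or cerebellum of mouse 1 or 2 (adjusted p = 0.10 at the highest), and the A391T one when cortex of mouse 1, 2 or 3 was (adjusted p = 0.057 at the highest). In the annotation used here *Dpm1* has 11882 exon bases, of which 37.0% overlap neighbouring genes on the same strand. Its length in the deposited table is 3646 bases, so the overlap of the gene as counted is not known.

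Of 6 genes that assemble core M3, 2 were higher, 3 were lower and 1 did not pass over all 8 mice, against 74.3% of all genes that passed. *B3galnt2*, which adds N-acetylgalactosamine, had 15.7 ± 1.73 TPM in wild-type cortex and 29.6 ± 2.26 TPM in wild-type cerebellum (log2 fold change 0.76, SE 0.094, adjusted p = 2.5e-05). Over all 8 mice the kinase gene *Pomk* was lower (-0.48, adjusted p = 1.8e-07), as was *B4gat1*, the primer of matriglycan (-0.32, adjusted p = 0.0070). *Rxylt1*, a xylosyltransferase gene, was slightly higher over all 8 mice (0.22, adjusted p = 0.0018). None of the 6 reached 2-fold, where 25.2% of all genes tested over all 8 mice did. In wild type *B4gat1* had -0.48 (adjusted p = 1.4e-04), and in A391T mice it had -0.18 and did not pass (adjusted p = 0.34). Without the cerebellum library of A391T mouse 1 it passed there (-0.40, adjusted p = 6.4e-06).

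The other O-mannosyltransferases act outside dystroglycan, TMTC1 to TMTC4 on cadherins and TMEM260 on plexins and related receptors. Of these 5 genes 3 were higher, 1 was lower and 1 did not pass, beside the same 74.3%. *Tmtc4* had 5.18 ± 0.584 TPM in wild-type cortex and 19.0 ± 0.489 TPM in wild-type cerebellum (1.72, SE 0.084), and *Tmtc2* had 5.50 ± 0.666 and 17.9 ± 1.02 TPM (1.55, SE 0.083). *Tmtc1* went the other way, from 42.1 ± 7.17 to 21.6 ± 2.28 TPM (-1.12, SE 0.11), and *Tmtc3* had 0.51 (SE 0.092) in wild type, 0.22 (SE 0.083) in A391T and 0.37 over all 8 mice. The A391T value of *Tmtc3* no longer passed when any of the 4 cortex libraries or the cerebellum library of mouse 2 or 4 was left out (adjusted p = 0.12 at the highest). Of the *Tmtc4* exon bases 21.5% overlap 4930594M22Rik on the other strand.

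Among 11 genes for ligands that bind matriglycan, 5 were higher in cerebellum, 5 were lower and 1 did not pass over all 8 mice, where 74.3% of all genes passed. *Agrn*, which encodes agrin, had 91.0 ± 13.0 TPM in wild-type cortex and 48.5 ± 1.09 TPM in wild-type cerebellum (-1.06, SE 0.088). Of the 5 laminin α chain genes, *Lama3* (-1.81, SE 0.19) and *Lama4* (-0.80, SE 0.11) were lower and *Lama1* (0.69, SE 0.12) and *Lama2* (0.78, SE 0.17) higher in wild type. *Lama5* had -0.16 and did not pass there (adjusted p = 0.34). In A391T mice *Lama3* (-2.70), *Lama4* (-1.02) and *Lama5* (-0.54, adjusted p = 0.0043) were lower and *Lama1* (0.64) and *Lama2* (0.46) higher. *Lama3* and *Lama4* were low in both regions, at 3.35 TPM or less on average in every group.

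Of 15 genes of the dystrophin complex, into which dystroglycan is built, 4 were higher, 7 were lower and 4 did not pass over all 8 mice, which is near the 74.3% of all genes. Among the higher genes, *Sgca* (0.82, adjusted p = 0.012) had too few counts in cortex to be tested there. It thus passed the filter on low counts only with its cerebellum counts, where it is high. *Sgcz*, ζ-sarcoglycan, had 3.00 ± 0.373 TPM in wild-type cortex and 0.758 ± 0.242 TPM in wild-type cerebellum (log2 fold change -2.13, SE 0.21). The γ-syntrophin genes were lower in wild-type cerebellum, with -2.04 (SE 0.12) for *Sntg1* and -3.13 (SE 0.25) for *Sntg2*. The *Sntg2* level was low, with 3.39 ± 0.602 TPM in wild-type cortex and 0.424 ± 0.180 TPM in wild-type cerebellum. *Dtnb*, β-dystrobrevin, was lower as well, with -0.84 (SE 0.071) in wild type, -1.06 (SE 0.10) in A391T and -0.94 (SE 0.065) over all 8 mice. Over all 8 mice the median log2 fold change of the 5 lists ran from -0.20 to 0.37, beside 0.04 for all genes tested.

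**Figure D5:**
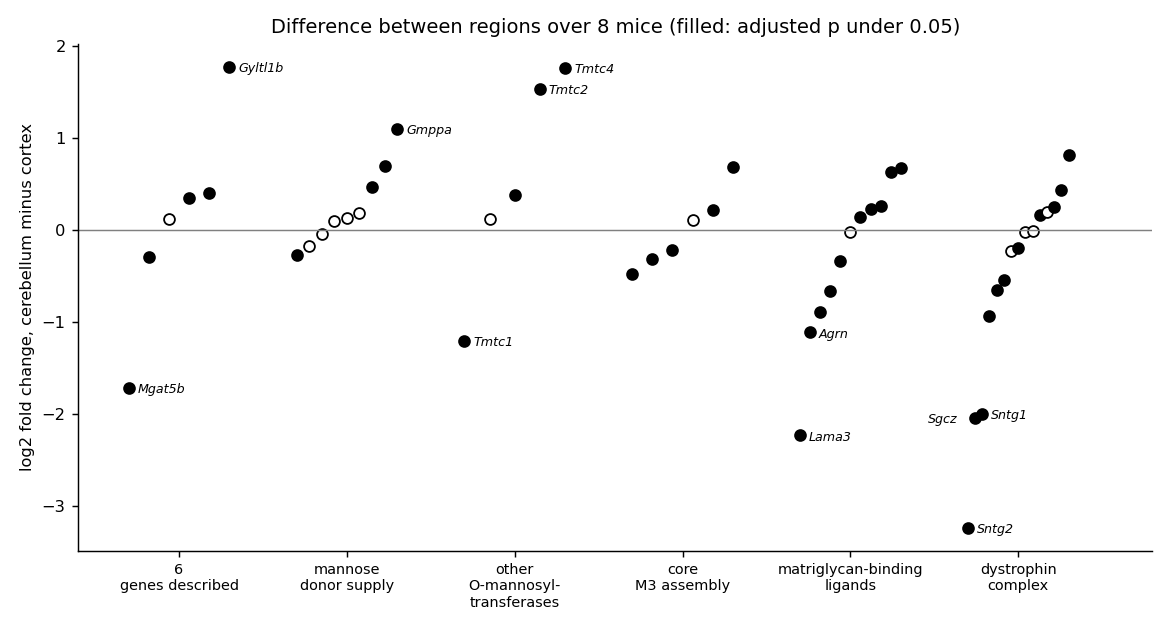
Log2 fold change between regions over 8 mice (y axis, cerebellum minus cortex) of each gene (points, filled where the adjusted p was under 0.05), by list (x axis), with names at 2-fold or more. *Mgat5b* and *Gyltl1b* are the 2 of the 6 genes past 2-fold, and no gene of core M3 assembly is, against 25.2% of all genes tested.

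The second question was whether the A391T variant went with a difference in these genes. None of the 5 genes tested in cortex passed, where 2 of 15815 genes did (0.0126%), 748 had an unadjusted p under 0.05 and DESeq2 called 14. None of the 6 passed in cerebellum, where no gene of 15668 did (0%), 1340 had an unadjusted p under 0.05 and DESeq2 called 29. In cortex the log2 fold changes, A391T minus wild type, ran from -0.05 (*Pomt1*, SE 0.071) to 0.05 (*Pomt2*, SE 0.072). In cerebellum *Pomt1* had -0.18 (SE 0.12), but -0.07 without the library of A391T mouse 1 and -0.06 under the names of the RPKM table. *Gyltl1b* had too few counts in cortex to be tested. In cerebellum it had 0.743 ± 0.247 TPM in wild type and 0.458 ± 0.112 TPM in A391T (-0.64, SE 0.31, unadjusted p = 0.066, adjusted p = 0.53), and under the names of the RPKM table the sign turned (0.58). The choroid plexus markers had mean sums of 5155 TPM in wild-type and 2896 TPM in A391T cerebellum, and their part in this difference was not tested.

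The difference between regions was not found to depend on genotype for any of the 6 genes, and none of 16589 genes had an interaction that passed (0%), where 805 had an unadjusted p under 0.05 and DESeq2 called 1. *Pomt1* had the smallest unadjusted p among the 6 genes, with a log2 interaction of -0.14 (SE 0.14, unadjusted p = 0.32, adjusted p = 0.80). With the cerebellum library of A391T mouse 1 and the cortex library of wild-type mouse 4 left out it was 0.0078. For *Gyltl1b* the interaction was 0.07 (SE 0.54), and under the names of the RPKM table it was 1.29 (SE 0.62, adjusted p = 0.50). Its size thus depends on which names are right, and it passed under neither. None of the genes of the 5 other lists passed in a genotype comparison or in the interaction.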

How the data were processed

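RNA of cortex and cerebellum was measured in 16 libraries. Per the labels and the methods of the study, the authors prepared directional libraries from polyA RNA, aligned them to mm9 by STAR and used HTSeq to count Ensembl genes. The authors deposited whole-number counts without normalization, counted without regard to strand. They also deposited RPKM values with a gene length, used here for lengths and to compare library names. From 21.4% to 27.1% of the entries of a count file lay on no single gene and stayed out of totals. TPM was computed here from counts and lengths. Counts were fitted with edgeR 4.0.16 (limma 3.58.1, R 4.3.3) (filterByExpr, TMM factors, quasi-likelihood F test, Benjamini-Hochberg over the genes tested), and region over all mice had genotype as a term. Each SE is the log2 fold change over the root of F. Ratios were tested with exact permutation tests in scipy 1.17.1. The fits were tested on simulated data in which few genes changed. How scaling behaves where most genes differ, as between the regions, was not checked by it. The alternatives included DESeq2 1.42.0, other scalings and filters, the names of the RPKM table, mouse as a block and each library left out. The libraries of the 2 regions are paired by mouse, as the methods state, and deviations from group means of 1 mouse had correlations from -0.10 to 0.10. Named genes were the 6 members described, the 4 genes of each list with the largest wild-type change, and the 3 genes most alike to 3 members. *Lama1* and *Lama5* were added after their values were seen, so that all laminin α chains are given. Some genes of the route and of the lists are not reported here. The members and lists were chosen with earlier results of these data known. Leaving out libraries far from their group or rich in choroid plexus markers (over 1000 TPM) was chosen after seeing the data, as was leaving each library out for the named genes of the lists. P-values measure the spread between mice.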

Additional observations from a re-analysis of the deposited data

Results flagged for a closer look

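In 32 groups of 4 libraries (6 genes and 2 ratios in 4 groups each), 2 held a library that stood apart from the other 3 by Dixon's test at the 95% level, where chance gives about 5% of groups. *Dag1* in A391T cortex was 38.8 TPM in mouse 3 against 38.2 to 38.3 TPM in the others, a gap of under 1 TPM in a very tight group. *Mgat5b* in wild-type cortex was 94.4 TPM in mouse 4 against 115 to 119 TPM. That library was also the farthest from its group over all genes in cortex, and the low *Dag1* value of 25.0 TPM came from it too.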

How the results depend on the processing

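*Pomt2*, *Pomgnt1* and *Mgat5b* kept their direction and passed the adjusted p between regions in every alternative fit, and *Pomt1* did in wild type and over all 8 mice. Of these genes only *Mgat5b* met the 2-fold criterion as well. The count of genes that passed stayed within 1.5 times of the reported one in each alternative except the 2-fold criterion, where it was 2 in wild type, 2 in A391T and 2 over all 8 mice. In A391T mice *Pomt1* passed in 4 of 18 alternatives. *Dag1* in wild type turned sign to -0.022 without the library of mouse 4, alone or with the A391T library far from its group, and ran from -0.022 to 0.19 with each library left out. The cause was not tested for these or the following turns of sign. Under the names of the RPKM table *Pomt1* had 0.020 between genotypes in cortex, and *Gyltl1b* had 0.58 in cerebellum. The interaction was 0.0078 for *Pomt1* and -0.090 for *Gyltl1b* without both libraries far from their groups and that of *Gyltl1b* ran from -0.27 to 0.37 with each library left out, and was 1.29 under the names of the RPKM table and 1.33 with the replicate block as well, where it did not pass (adjusted p = 0.50 and 0.52). The log2 ratio of *Pomt1* to *Pomt2* was -0.0035 in wild type under those names, and with each library left out it ran from -0.020 to 0.063 in wild type and from -0.20 to 0.026 in A391T. Of 324 alternative fits of a gene in a genotype comparison or the interaction, 44 turned sign and none passed. With mouse as a replicate block, *Pomt1* in A391T mice had 0.24 (adjusted p = 0.10) and no call of the 6 genes changed. The paired sign-flip test of *Mgat5b* to *Pomgnt1*, with 4 mice, cannot go below 0.125, and gave 0.125 in both genotypes for log2 differences of -1.37 and -1.48. *Gyltl1b* had few counts, from 2 to 35 per library, and how its results depend on depth was not tested.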
